A study of Mus musculus with 9 samples.

Results

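Prostaglandins act in the ovulating follicle, and 10 genes of their synthesis, sensing and removal were examined in mouse corona radiata cells, the cumulus granulosa cells around the oocyte. The genes were chosen by symbol: Pla2g4a, Ptgs1, Ptgs2 and Ptges make prostaglandin E2, Ptger2, Ptger4 and Ptgfr are receptors, and Slco2a1, Abcc4 and Hpgd transport or inactivate prostaglandins. All 10 were found among the 54838 genes of the deposited table, and all 10 were among the 16422 genes tested. Each of the 10 was at or above 1 RPKM (reads per kilobase of exon, scaled to the library) in all 9 libraries.

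RNA sequencing covered 3 genotypes of adult mice with 3 libraries each, all described as granulosa cells taken after PMSG and hCG, with the unexplained term J4. PMSG acts like follicle-stimulating hormone, and hCG stands in for the luteinizing hormone surge. The genotypes were WT, DKO LXR (called LXR DKO here), which lacks both liver X receptors, and DKO LXR TG-AMH-LXRb (called transgenic here), which has the same double knockout and in addition a transgene. The labels describe neither the promoter nor the coding sequence of that transgene, nor the deleted parts of the receptor genes, nor whether animals were pooled. Separate animals behind the libraries are not stated, so a p-value here reflects the spread among libraries, and that spread may be technical.

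As background, cytosolic phospholipase A2 frees arachidonic acid from membranes, a cyclooxygenase turns it into prostaglandin H2, and terminal synthases make the single prostanoids from that. In cumulus cells the gonadotropin surge is known to induce Ptgs2, and prostaglandin E2 acts through receptors that raise cAMP and support expansion of the cumulus matrix. The signal ends when a carrier takes prostaglandin into the cell and a dehydrogenase in the cytosol oxidises it.

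Some libraries stood apart. WT 1 and LXR DKO 1 had a summed RPKM of 806 and 469 over 12 oocyte markers, against 1.16 to 49.2 elsewhere. Summed RPKM of 7 erythroid markers was 9881 in WT 3 and at most 971 elsewhere. Summed RPKM of 10 oviduct epithelium markers was 200, 237 and 1442 across WT, 370, 839 and 619 across LXR DKO and 1515, 2092 and 1974 across transgenic libraries. The 12 granulosa and cumulus markers were all at or above 1 RPKM in some library and summed to 852 to 954 RPKM across WT, 509 to 785 across LXR DKO and 558 to 670 across transgenic libraries. The targeted Nr1h2 gene read 39.7 to 45.7 RPKM across WT, 2.85 to 3.57 across LXR DKO and 4.83 to 6.70 across transgenic libraries, and Nr1h3 read 3.50 to 5.72, 0.713 to 1.08 and 0.395 to 0.819 RPKM. Since the deleted parts are not given, these reads check the labels only in part.

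Of the 10 genes, 2 passed the threshold in LXR DKO against WT: the prostaglandin F receptor gene Ptgfr was higher and the prostaglandin carrier gene Slco2a1 was lower. Over all tested genes 10.6% were called in that comparison, 3.47% higher and 7.12% lower. In transgenic against LXR DKO none of the 10 passed the threshold (limma), where 0.116% of all genes did (0.0548% higher and 0.0609% lower), and 3 of them (Ptgfr, Ptger4 and Slco2a1) had an unadjusted p under 0.05, as did 1330 of the 16422 genes. In transgenic against WT only Ptgfr passed, as higher, against 11.9% of all genes (5.15% higher and 6.72% lower). The median log2 fold change of the 10 genes was -0.012 in LXR DKO against WT, 0.24 in transgenic against LXR DKO and 0.15 in transgenic against WT, beside medians of 0.017, 0.013 and 0.015 over all genes tested. Without WT 1 and LXR DKO 1 the count in LXR DKO against WT was 1 (Ptgfr). Counted by libraries that did not overlap, 1 of the 10 was higher and 1 lower in LXR DKO against WT, beside 28.9% of all tested genes (13.1% higher and 15.9% lower). In transgenic against LXR DKO, 3 were higher (Ptger4, Slco2a1 and Hpgd) and 1 lower (Ptgfr), beside 18.3% of all genes (11.3% higher and 7.05% lower). In transgenic against WT, 3 were higher (Ptgfr, Ptger4 and Abcc4), beside 35.7% of all genes (16.8% higher and 18.9% lower). The counts of called genes against WT, 2 and 1 of 10, were within 1 gene of the background share. The 3 comparisons share their libraries in pairs, so they are not independent of each other.

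**Figure D1:**
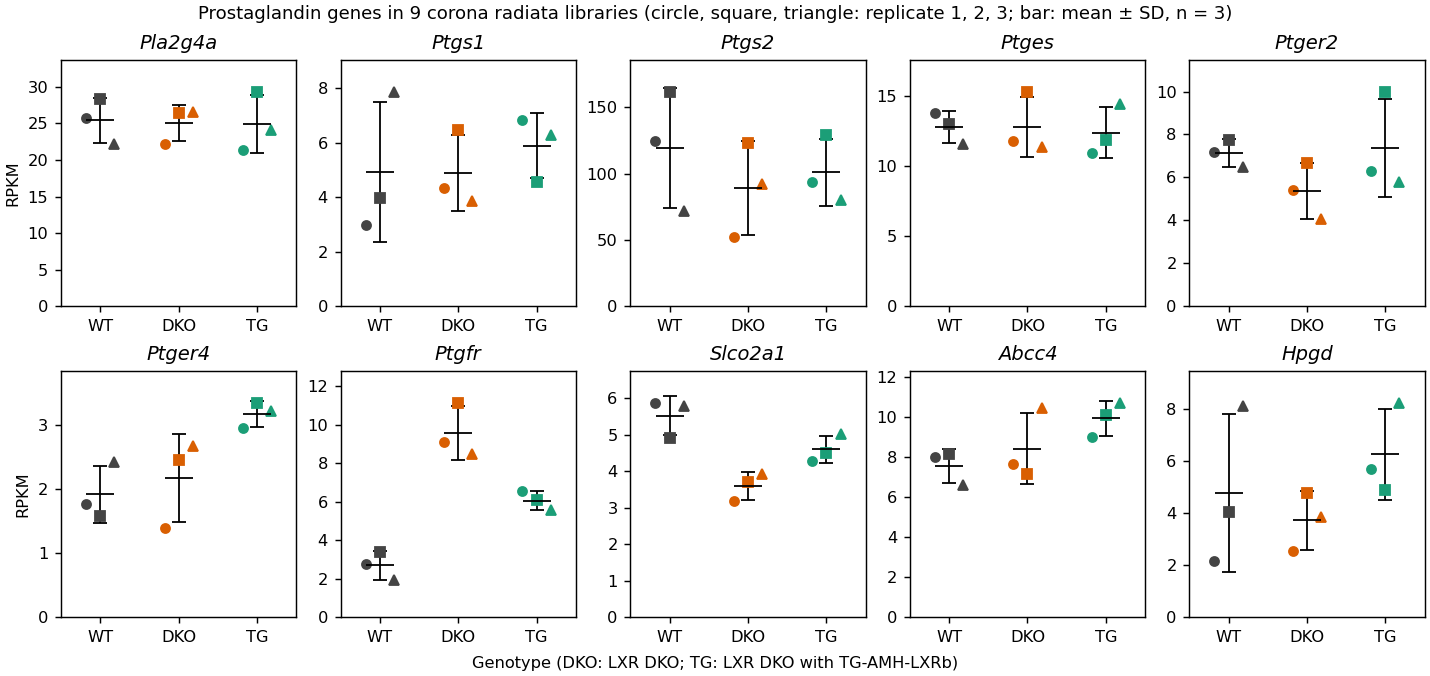
RPKM (vertical axes, starting at 0) of each of the 10 genes in each library by genotype (horizontal axes), with circles, squares and triangles for replicates 1, 2 and 3 and bars for the mean ± SD of 3 libraries. Ptgfr does not overlap between genotypes, with 1.93 to 3.39 RPKM across WT, 8.48 to 11.1 across LXR DKO and 5.55 to 6.53 across transgenic libraries. Its difference between transgenic and LXR DKO libraries missed the threshold (limma, adjusted p = 0.329).

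The start region of Ptgfr is shown because this gene gave the largest difference between genotypes among the 10. The RefSeq table (GRCm38.p6) gives 1 promoter for it, on the minus strand of chromosome 3. Of the 250 bases before the start, 102 lie in an exon of the gene in GENCODE M21 and are not printed. The other 148 bases, chr3:151837631-151837778, end 103 bases before the RefSeq start. Capitals mark the reverse complement of the nuclear receptor core motif AGGTCA.
Ptgfr: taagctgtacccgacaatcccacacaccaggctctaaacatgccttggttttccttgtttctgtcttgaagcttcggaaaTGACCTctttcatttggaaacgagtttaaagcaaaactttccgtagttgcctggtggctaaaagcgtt
The match lies on the opposite strand to the gene, at bases -170 to -165 counted back from the start. Within the same 250 bases, both strands searched, 14.0% of 32851 RefSeq promoters hold AGGTCA. A GC box, GGGCGG, stands at -30 to -25 in the Ptgfr window, a motif found in 32.7% of promoters. The element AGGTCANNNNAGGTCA, an exact repeat of the core with the spacing that liver X receptors are known to bind, was in 0.0152% of promoters, and neither Ptgfr nor Slco2a1 held it in these letters. The Slco2a1 window lies wholly inside an exon of that gene in GENCODE M21, so its sequence is not printed. It held GGGCGG at -106 to -101 and TATAAA, found in 12.4% of promoters, at -29 to -24. Neither window held CAAGGTCA (1.33% of promoters), TGACG (17.8%), TGANTCA (6.75%) or CACGTG (6.02%). Every CAAGGTCA also contains AGGTCA. A match is a description of letters only, and none of these windows was measured for binding here.

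The first step is the release of arachidonic acid. Pla2g4a, which encodes cytosolic phospholipase A2 (mm10 chromosome 1, 149829618 to 149961290, minus strand), read 25.7, 28.3 and 22.2 RPKM across WT, 22.2, 26.4 and 26.6 across LXR DKO and 21.4, 29.2 and 24.1 across transgenic libraries. The 3 genotypes overlapped fully. The log2 fold change in LXR DKO against WT was -0.018 with a 95% interval of -0.32 to 0.29 (adjusted p = 0.953). The intervals for transgenic against LXR DKO (-0.32 to 0.29) and against WT (-0.34 to 0.27) were as narrow. Pla2g4a lies 138740 bases from Ptgs2 on chromosome 1.

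Ptgs2, the inducible cyclooxygenase gene (chromosome 1, 150100031 to 150108227, plus strand), had the highest level of the 10 genes in every genotype. It read 125, 161 and 71.9 RPKM across WT, 52.2, 123 and 91.8 across LXR DKO and 94.1, 129 and 79.9 across transgenic libraries. The highest library was WT 2 and the lowest LXR DKO 1, and the genotypes overlapped. High oocyte markers were found in LXR DKO 1 and also in WT 1, which read 125 RPKM. The part of oocyte RNA in the Ptgs2 values was not tested. The mean was 119 ± 45.0 RPKM for WT against 89.1 ± 35.5 for LXR DKO (SD, n = 3), and the log2 fold change of -0.43 ± 0.37 (SE) did not pass the threshold (adjusted p = 0.511). Its 95% interval, -1.26 to 0.40, spans both directions. In transgenic against LXR DKO the log2 fold change was 0.24 (interval -0.59 to 1.06, adjusted p = 0.915). Without LXR DKO 1 that value was -0.10.

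Ptgs1, the constitutive cyclooxygenase gene (chromosome 2, 36230426 to 36252272, plus strand), read 2.98, 3.96 and 7.85 RPKM across WT, 4.33, 6.48 and 3.87 across LXR DKO and 6.83, 4.56 and 6.29 across transgenic libraries. WT 3 was the highest library and WT 1 the lowest, so that WT alone spanned the range of the other genotypes. No comparison passed the threshold (log2 fold changes 0.051, 0.24 and 0.29, adjusted p = 0.939, 0.885 and 0.539). Ptgs2 made up 90.2% to 97.7% of the summed RPKM of both cyclooxygenase genes across the 9 libraries. That share was lowest in WT 3, and its mean was 95.1% ± 4.32 in WT, 94.4% ± 1.88 in LXR DKO and 94.2% ± 2.11 in transgenic libraries (SD, n = 3).

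Ptges, the inducible terminal synthase gene of prostaglandin E2 (chromosome 2, 30889471 to 30929863, minus strand), read 13.8, 13.0 and 11.6 RPKM across WT, 11.8, 15.3 and 11.4 across LXR DKO and 10.96, 11.8 and 14.4 across transgenic libraries. Its genotypes overlapped, and its highest value was 1.39 times its lowest. The log2 fold changes were -0.0069, -0.041 and -0.048 (adjusted p = 0.982, 0.968 and 0.840), with 95% intervals that reached from -0.36 to 0.30 at their widest over the 3 comparisons.

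Among receptors, Ptgfr (ENSMUSG00000028036, chromosome 3, 151796502 to 151837630, minus strand) encodes the prostaglandin F receptor, which acts through calcium and is known for its part in the regression of the corpus luteum. It read 2.74, 3.39 and 1.93 RPKM across WT, 9.11, 11.1 and 8.48 across LXR DKO and 6.53, 6.09 and 5.55 across transgenic libraries. The lowest LXR DKO library lay above the highest transgenic one, and the lowest transgenic library above the highest in WT. Such a separation was shown by 7.05% of all tested genes, as lower in transgenic than in LXR DKO libraries. As higher in transgenic than in WT libraries, 16.8% showed it. Reads worked back from these values numbered 615 to 851 in WT, 1984 to 2590 in LXR DKO and 1276 to 2052 in transgenic libraries.

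Ptgfr rose in LXR DKO by 1.53 ± 0.16 on the log2(RPKM + 1) scale (SE, 95% interval 1.17 to 1.89, limma, adjusted p = 0.000981), and the ratio of mean RPKM was 3.56. Against WT it was also higher in transgenic libraries, by 0.95 ± 0.16 (0.59 to 1.31, adjusted p = 0.00908). The transgenic libraries measured below LXR DKO by a log2 fold change of -0.58 (-0.94 to -0.22), which missed the threshold (adjusted p = 0.329). Both calls against WT held under all 18 alternatives tried. Without WT 1 and LXR DKO 1, the libraries with high oocyte markers, the log2 fold change was 1.58 in LXR DKO (adjusted p = 0.0142) and 0.97 in transgenic libraries (adjusted p = 0.0369). Of 11 tested granulosa and cumulus markers, 3 were called lower in LXR DKO than in WT (Inhba, Fst and Hsd17b1) and none higher. The share of all genes called lower was 7.12%. In transgenic against WT the same 3 markers were called lower and none higher, beside 6.72% of all genes called lower. The log2 fold change was positive for 4 of the 11 in each of these 2 comparisons. The part of these markers in the Ptgfr results was not tested. In bulk libraries fewer cells of a type and less RNA per cell cannot be told apart. The Ptgfr exons overlap those of Gm43618 on the other strand over 329 bases (4.85%), and that gene read at most 0.311 RPKM.

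Ptger2 and Ptger4 encode receptors of prostaglandin E2 that raise cAMP. Ptger2 (chromosome 14, 44988195 to 45003820, plus strand) read 7.20, 7.76 and 6.47 RPKM across WT, 5.42, 6.68 and 4.07 across LXR DKO and 6.32, 9.97 and 5.81 across transgenic libraries. LXR DKO and WT overlapped only through LXR DKO 2, and transgenic 2 stood above all other libraries. The log2 fold change in LXR DKO against WT was -0.37 (-0.83 to 0.095) and did not pass the threshold (adjusted p = 0.294). The transgenic mean, 7.36 ± 2.27 RPKM, lay beside the WT mean of 7.14 ± 0.644 (SD, n = 3), with a log2 fold change of 0.0089 and an interval of -0.45 to 0.47.

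Ptger4 (chromosome 15, 5206661 to 5244187, minus strand) had the lowest mean RPKM of the 10 genes in each genotype. It read 1.77, 1.58 and 2.42 RPKM across WT, 1.40, 2.46 and 2.68 across LXR DKO and 2.96, 3.35 and 3.22 across transgenic libraries. Every transgenic library lay above all WT and LXR DKO libraries, a separation upward that 16.8% of all tested genes showed against WT and 11.3% against LXR DKO. The log2 fold change against WT, 0.53 ± 0.18 (0.12 to 0.93), did not pass the threshold (adjusted p = 0.0897). It passed without WT 3 (0.64, adjusted p = 0.0391) and without LXR DKO 1 (0.53, adjusted p = 0.0370). Against LXR DKO the log2 fold change was 0.42 (0.011 to 0.82, adjusted p = 0.608). The exons of Ptger4 share 82 bases (1.23%) with Ttc33 on the other strand, a gene that reached 18.02 RPKM, and without a stated strand setting reads there cannot be assigned.

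The balance among receptor genes was read within libraries, since RPKM is per length. The lengths that gave back whole reads count every annotated exon base of a gene. Shares and orders between genes therefore depend on that annotation. Ptger2 made up 80.3%, 83.1% and 72.8% of the RPKM of both prostaglandin E2 receptor genes across WT, 79.5%, 73.1% and 60.3% across LXR DKO and 68.1%, 74.8% and 64.3% across transgenic libraries, and these ranges overlapped. A second share was chosen after the values were seen and has no test. Ptgfr made up 23.4%, 26.7% and 17.8% of the summed RPKM of Ptgfr, Ptger2 and Ptger4 across WT, 57.2%, 54.9% and 55.7% across LXR DKO and 41.3%, 31.4% and 38.1% across transgenic libraries. The mean share was 22.6% ± 4.47 in WT, 55.9% ± 1.17 in LXR DKO and 36.9% ± 5.07 in transgenic libraries (SD, n = 3). In WT Ptger2 was thus the most abundant of the 3 receptor genes in each library, and in LXR DKO it was Ptgfr.

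**Figure D2:**
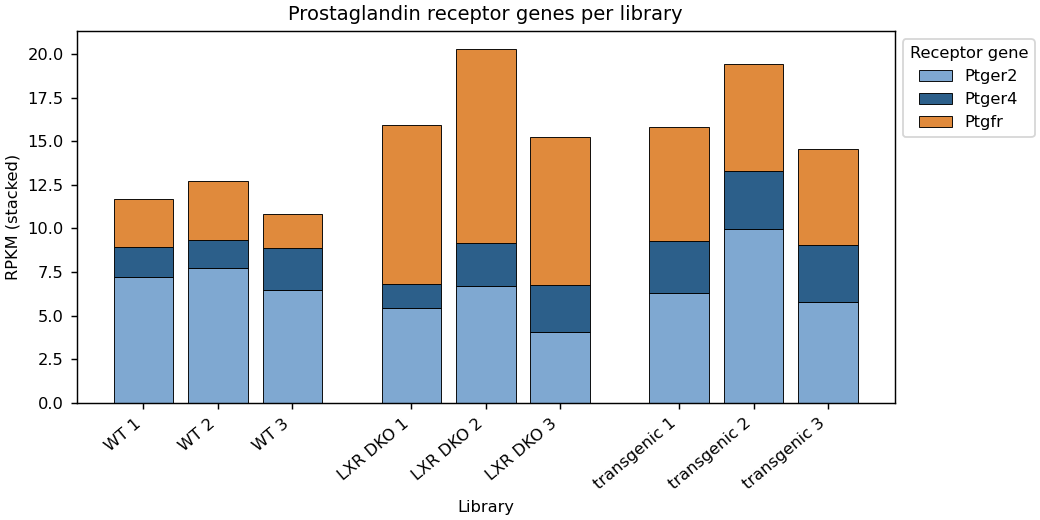
Stacked RPKM (vertical axis, starting at 0) of Ptger2, Ptger4 and Ptgfr in each of the 9 libraries (horizontal axis). The Ptgfr segment is 17.8% to 26.7% of the bar across WT, 54.9% to 57.2% across LXR DKO and 31.4% to 41.3% across transgenic libraries.

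Of the other prostanoid receptor genes, 6 of the 7 listed were too low to be tested. Ptger1, Ptger3, Ptgir, Ptgdr, Ptgdr2 and Tbxa2r stayed below 1 RPKM in every library, with Ptgir the highest at 0.914 RPKM in LXR DKO 2. The tested one, Ptgfrn, encodes a membrane protein that inhibits prostaglandin F binding to its receptor. Ptgfrn read 2.20 to 3.45 RPKM and was not called in any comparison, with a log2 fold change of 0.098 in LXR DKO against WT (-0.21 to 0.40, adjusted p = 0.699).

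Removal of prostaglandin begins with uptake. Slco2a1 (ENSMUSG00000032548, chromosome 9, 102988712 to 103096002, plus strand), the gene of the prostaglandin carrier, read 5.88, 4.92 and 5.78 RPKM across WT, 3.18, 3.70 and 3.93 across LXR DKO and 4.29, 4.50 and 5.01 across transgenic libraries. All LXR DKO libraries lay below all WT libraries, and the transgenic libraries lay between, overlapping WT through transgenic 3. Reads numbered 2467 to 3685 in WT and 1677 to 1836 in LXR DKO.

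Slco2a1 fell by 0.50 ± 0.11 on the log2 scale in LXR DKO against WT (SE, 95% interval -0.75 to -0.26, adjusted p = 0.0212), and the ratio of means was 0.652. The call was lost without WT 1 (-0.46, adjusted p = 0.0694), without LXR DKO 2 (-0.52, 0.0596), without LXR DKO 3 (-0.56, 0.0511) and without WT 1 and LXR DKO 1 together (-0.40, 0.105). It was also lost with only the 2 genotypes in the fit (adjusted p = 0.0609). The transgenic libraries measured above LXR DKO by 0.28 (0.042 to 0.53, adjusted p = 0.538) and below WT by a log2 fold change of -0.22 (-0.46 to 0.023, adjusted p = 0.202), and neither passed the threshold. Endothelium is another place where such a carrier is known to be expressed. Of 7 endothelial markers, 5 stayed under 1 RPKM in every library, and Tek and Emcn were at 0 in some. The sum of the 7 ran from 2.41 to 4.03 RPKM across WT and from 3.47 to 6.12 across LXR DKO. The part of endothelial cells in the Slco2a1 values was not tested.

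Abcc4, the gene of an efflux pump that exports prostaglandin E2 and cyclic nucleotides (chromosome 14, 118482692 to 118706219, minus strand), read 7.98, 8.14 and 6.60 RPKM across WT, 7.63, 7.16 and 10.5 across LXR DKO and 8.999, 10.1 and 10.7 across transgenic libraries. All transgenic libraries lay above all WT libraries, and LXR DKO 3 lay within the transgenic range. The log2 fold change in transgenic against WT was 0.35 (0.030 to 0.68) and did not pass the threshold (adjusted p = 0.135). In LXR DKO against WT it was 0.12 (-0.20 to 0.45, adjusted p = 0.636).

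Hpgd, the gene of the dehydrogenase that inactivates prostaglandins (chromosome 8, 56294585 to 56321043, plus strand), was the gene with the fewest reads, 161 in WT 1 to 641 in WT 3. It read 2.17, 4.04 and 8.10 RPKM across WT, 2.52, 4.78 and 3.84 across LXR DKO and 5.68, 4.87 and 8.23 across transgenic libraries. Each transgenic library lay above each LXR DKO library, while WT spanned almost the whole range. No comparison passed the threshold: the log2 fold changes were -0.19 (-1.01 to 0.63, adjusted p = 0.792) in LXR DKO against WT, 0.63 (-0.19 to 1.45, adjusted p = 0.720) in transgenic against LXR DKO and 0.44 (-0.38 to 1.26, adjusted p = 0.445) in transgenic against WT. Without WT 3 the first value was 0.21 and the last 0.83.

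Oviduct epithelium markers also varied between libraries. The 4 libraries with the highest summed RPKM of the 10 oviduct markers were WT 3 and the 3 transgenic ones, at 1442 to 2092 RPKM, and these were also the 4 libraries with the highest Hpgd. Most of these 4 sums was 1 gene, Ovgp1, at 1125 RPKM in WT 3 and 1266 to 1857 across transgenic libraries. Krt8, Epcam, Cdh1, Pax8 and Sox17 were also highest in these 4 libraries, while Foxj1, Dnah5, Wfdc2 and Muc16 gave another order. In WT 1 and WT 2 the sums were 200 and 237 RPKM, beside 2.98 and 3.96 RPKM of Ptgs1 and 2.17 and 4.04 of Hpgd. Transgenic 2 had the highest sum, 2092 RPKM, with 4.56 RPKM of Ptgs1, while LXR DKO 2, at a sum of 839, read 6.48. Of 9 oviduct markers tested, none was called in LXR DKO against WT and 2 (Dnah5 and Cdh1) were higher in transgenic libraries than in WT, beside 5.15% of all genes. Muc16 was at 0 in some libraries. The 7 smooth muscle markers had their highest summed RPKM in WT 3 (94.2), LXR DKO 2 (88.0) and transgenic 1 (79.1), also the 3 libraries with the highest Ptgs1. Transgenic 2 was next at a sum of 58.1, with 4.56 RPKM of Ptgs1. The part of oviduct or smooth muscle cells in the levels of Hpgd and Ptgs1 was not tested.

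**Figure D3:**
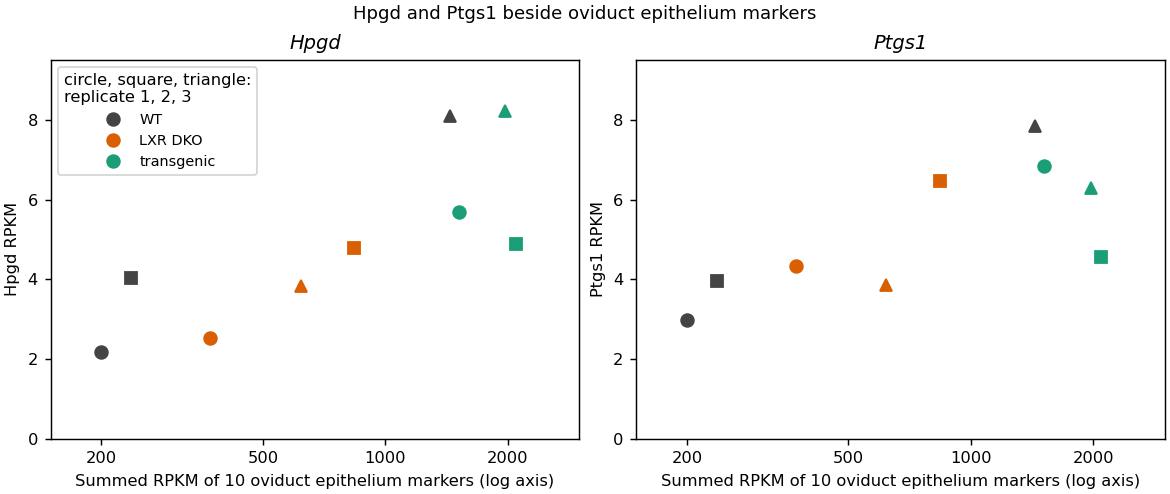
RPKM of Hpgd (left) and Ptgs1 (right), on vertical axes that start at 0, against the summed RPKM of 10 oviduct epithelium markers (horizontal log axis), 1 point per library. WT 3, at 1442 on the horizontal axis, lies apart from WT 1 and WT 2 at 200 and 237, with 8.10 RPKM of Hpgd against 2.17 and 4.04. Of the 1442 RPKM in WT 3, 1125 was Ovgp1.

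Set in order of mean level, Ptgs2, Pla2g4a and Ptges were the top 3 genes in each genotype, and the libraries of neighbours in that order did not overlap. In WT they were followed by Abcc4 (7.57 ± 0.850 RPKM) and Ptger2 (7.14 ± 0.644), which overlapped each other but not Slco2a1 below them (5.53 ± 0.527). From Slco2a1 through Ptgs1, Hpgd, Ptgfr (2.69 ± 0.733) and Ptger4 (1.92 ± 0.443) each neighbour overlapped the next in WT. Ptgfr was in place 9 of 10 in WT, in place 4 in LXR DKO (9.58 ± 1.39, overlapping Abcc4) and in place 7 in transgenic libraries (6.06 ± 0.493, overlapping Hpgd and Ptgs1). Slco2a1 was in place 6 in WT and in place 9 in both other genotypes. It overlapped Ptgs1 in WT, Hpgd in LXR DKO and Ptgs1 in transgenic libraries. Only in LXR DKO against WT was Slco2a1 called. Errors are SD with n = 3.

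**Figure D4:**
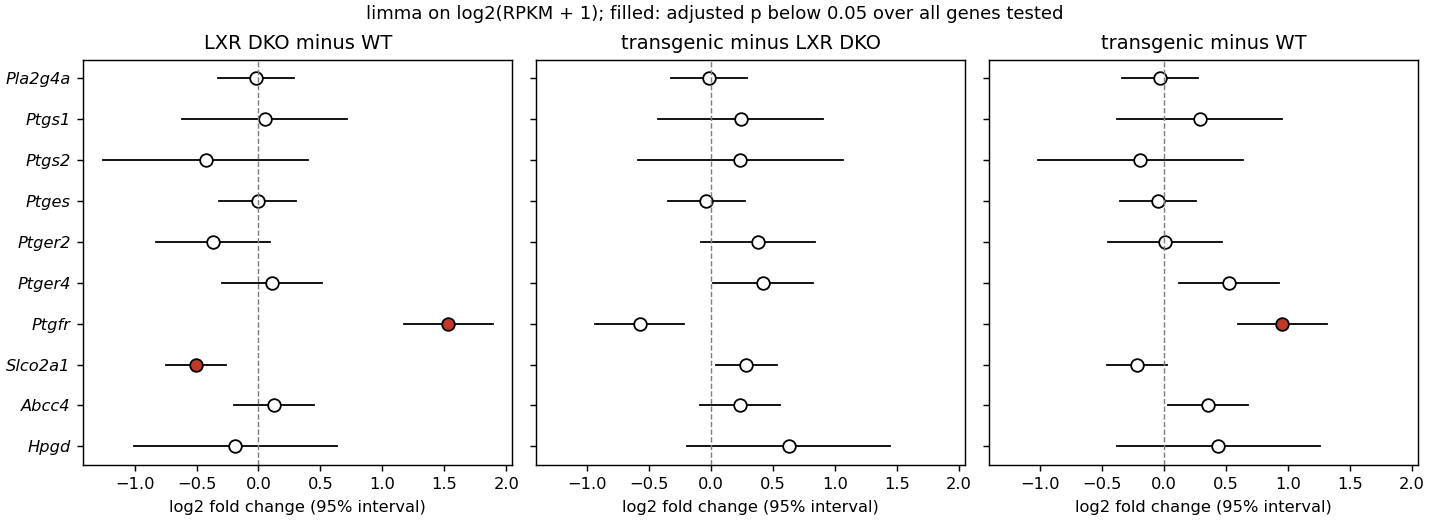
Log2 fold change on the log2(RPKM + 1) scale with its 95% interval (horizontal axes) for each of the 10 genes (rows) in the 3 comparisons (panels); filled points passed an adjusted p of 0.05 in limma. Ptgfr at 1.53 and Slco2a1 at -0.50 are filled in LXR DKO minus WT, no point in transgenic minus LXR DKO, and Ptgfr at 0.95 in transgenic minus WT.

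The genes whose profile over the 9 libraries was most like that of Ptgfr, by Pearson correlation of log2(RPKM + 1), were Mid1 (0.98), Akr1c18 (0.98) and Csgalnact1 (0.97). Their mean RPKM in WT, LXR DKO and transgenic libraries was 0.759, 1.51 and 1.14 for Mid1, 2459, 3988 and 3349 for Akr1c18 and 1.196, 2.43 and 2.11 for Csgalnact1. For Slco2a1 they were Hjurp (0.98), Gm49330 (0.97) and Gm33080 (0.96), and Hjurp measured 11.2, 6.60 and 9.59 RPKM. These correlations are the highest of all tested genes over 9 libraries that share their genotypes and depth, and are a description only.

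A further 83 genes of the pathway and its neighbourhood were listed, of which 54 were tested. In LXR DKO against WT, 3 of the 54 were higher and 5 lower (14.8%, beside 10.6% of all genes). In transgenic against LXR DKO none passed the threshold (limma), while 7 had an unadjusted p under 0.05. In transgenic against WT, 2 were higher and 6 lower (14.8%, beside 11.9% of all genes), and 1 of the 6, Has2, passed the filter only through WT libraries. The all-gene shares apply to each list that follows. The median log2 fold change of the 54 was 0.056, -0.024 and 0.047.

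Among 10 tested genes of arachidonate release no call was made in any comparison (limma). With an unadjusted p under 0.05 there were 4 in LXR DKO against WT: Acsl4, Anxa1, Pla2g15 and Pla2g12a, beside 4354 of all 16422 genes. Acsl4, which activates arachidonic acid for storage in membranes, measured 0.68 higher in log2 fold change (0.063 to 1.29, adjusted p = 0.151). Pla2g4c was not tested: WT 1 and LXR DKO 1, the libraries with high oocyte markers, read 23.3 and 10.8 RPKM, and all others under 1 RPKM.

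Of 11 tested genes of other prostanoid synthases, 2 rose and 1 fell in LXR DKO against WT, beside 3.47% of all genes higher and 7.12% lower. Akr1b7, an aldo-keto reductase gene linked to prostaglandin F synthesis, read 0.904, 1.60 and 0.431 RPKM across WT, 6.78, 4.41 and 6.63 across LXR DKO and 1.80, 2.01 and 1.54 across transgenic libraries. All LXR DKO libraries lay above all others. Akr1b7 rose in LXR DKO by 1.83 ± 0.23 (1.32 to 2.35, adjusted p = 0.00245), and this call held under all 18 alternatives. In transgenic against LXR DKO its log2 fold change was -1.30 ± 0.23 (-1.81 to -0.79), which missed the threshold (adjusted p = 0.10). It passed without WT 3 (adjusted p = 0.0202) and with only the 2 genotypes in the fit (0.0243).

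Akr1c18, whose enzyme inactivates progesterone, was the most abundant listed gene and rose from a mean of 2459 ± 348 to 3988 ± 245 RPKM (SD, n = 3). Its log2 fold change in LXR DKO against WT was 0.71 (adjusted p = 0.0223), and the call was lost under 6 of 18 alternatives. Akr1b7 and Akr1c18 belong to families of close copies, so reads may have been split between copies or lost. Ptgis, the prostacyclin synthase gene, fell from 9.68 ± 2.25 to 4.97 ± 0.852 RPKM, by 0.83 on the log2 scale (adjusted p = 0.0302), and this call was lost under 8 of 18 alternatives. None of the 11 was called in transgenic against WT, where 4 had an unadjusted p under 0.05, as did 4997 of all 16422 genes.

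Of 8 tested genes of other clearance and transport, Abcc1 rose and Slco3a1 fell against WT in both mutant genotypes. Abcc1, an efflux pump gene, read 4.81, 4.19 and 3.51 RPKM across WT, 5.43, 6.31 and 6.37 across LXR DKO and 7.43, 7.19 and 7.44 across transgenic libraries. The 3 genotypes did not overlap. The log2 fold change was 0.45 (adjusted p = 0.0359) in LXR DKO against WT, a call lost under 10 of 18 alternatives, and 0.70 (adjusted p = 0.00746) in transgenic against WT, which held under all 18. Slco3a1, another prostaglandin carrier gene, fell from 11.3 ± 0.972 to 7.58 ± 1.08 RPKM in LXR DKO (-0.52, adjusted p = 0.0356, lost under 9 of 18) and read 6.67 ± 0.948 RPKM in transgenic libraries (-0.68, adjusted p = 0.0142, lost under 3 of 18).

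In the lipoxygenase branch, which makes leukotrienes and related acids from the same precursor, 6 genes were tested and the 1 call was Lta4h, lower in transgenic libraries than in WT by a log2 fold change of -0.31 (adjusted p = 0.0329, lost under 9 of 18 alternatives). Alox15 read 155 RPKM in WT 3 and 17.7 to 150 in the other libraries, and was not called. Of 13 tested genes of cAMP and calcium signalling, 1 was called: the adenylate cyclase gene Adcy6 read 2.15 ± 0.573 RPKM in WT and 3.82 ± 0.247 in transgenic libraries (0.63, adjusted p = 0.0266, lost under 5 of 18).

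The last list holds 6 cumulus genes known to depend on prostaglandin E2 or its pathway, of which 5 were tested. Has2 is left out of the counts here, since it passed the filter only through the group where it was high. Of the other 4, 3 fell against WT in LXR DKO and in transgenic libraries (Tnfaip6, Ptx3 and Btc), beside 7.12% and 6.72% of all genes. The median log2 fold change of the 4 was -0.85 and -0.95. All of these genes also respond to other signals of the gonadotropin surge, and the list was chosen with earlier results of these data known.

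Tnfaip6, which links the hyaluronan matrix of the cumulus, read 450, 391 and 324 RPKM across WT, 107, 114 and 89.7 across LXR DKO and 136, 158 and 111 across transgenic libraries. WT did not overlap either mutant genotype. Tnfaip6 fell by 1.89 ± 0.17 in LXR DKO (adjusted p = 0.000396) and measured -1.52 ± 0.17 in transgenic libraries against WT (adjusted p = 0.00134), and both calls held under all 18 alternatives. In the same libraries Ptgs2, Ptges and Ptger2 were not called, and their part in the Tnfaip6 values was not tested. Their 95% intervals in LXR DKO against WT were -1.26 to 0.40 for Ptgs2, -0.32 to 0.30 for Ptges and -0.83 to 0.095 for Ptger2.

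Ptx3, another matrix gene, fell from 12.1 ± 2.80 to 5.98 ± 1.47 RPKM in LXR DKO (-0.91, adjusted p = 0.0356, lost under 9 of 18 alternatives) and read 5.76 ± 1.52 in transgenic libraries (-0.95, adjusted p = 0.0298, lost under 6). Btc, an epidermal growth factor-like ligand gene, fell from 11.8 ± 1.98 to 6.37 ± 1.10 RPKM in LXR DKO (-0.80, adjusted p = 0.0274, lost under 6) and read 5.71 ± 1.34 in transgenic libraries (-0.95, adjusted p = 0.0157, lost under 4). Has2, the hyaluronan synthase gene, passed the filter only through the WT libraries, at 1.16, 2.79 and 1.36 RPKM, and read 0.504 to 0.839 in the other 6. Its log2 fold change in transgenic against WT was -0.76 (adjusted p = 0.0443), a call lost under 9 of the 13 alternatives where it was tested. Ereg, another such ligand, read 0.597 to 2.96 RPKM across WT and 2.21 to 10.01 across LXR DKO, and was not called (1.14, 0.11 to 2.17, adjusted p = 0.150). Macrophage markers summed to 510 to 1224 RPKM across WT, 625 to 1142 across LXR DKO and 374 to 525 across transgenic libraries. Of 10 tested, none was called in LXR DKO against WT. In transgenic against WT, 4 of them were lower (Cd68, C1qa, C1qb and C1qc), beside 6.72% of all genes. In transgenic against LXR DKO, 1 was called lower (Cd68), beside 0.0609% of all genes. None of the 10 had a positive log2 fold change there, and their median was -1.20. In that comparison 9 of the 10 had an unadjusted p under 0.05 (limma), as did 1330 of all 16422 genes. The part of macrophage markers, and of the granulosa markers given above, in the values of these cumulus genes was not tested.

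**Figure D5:**
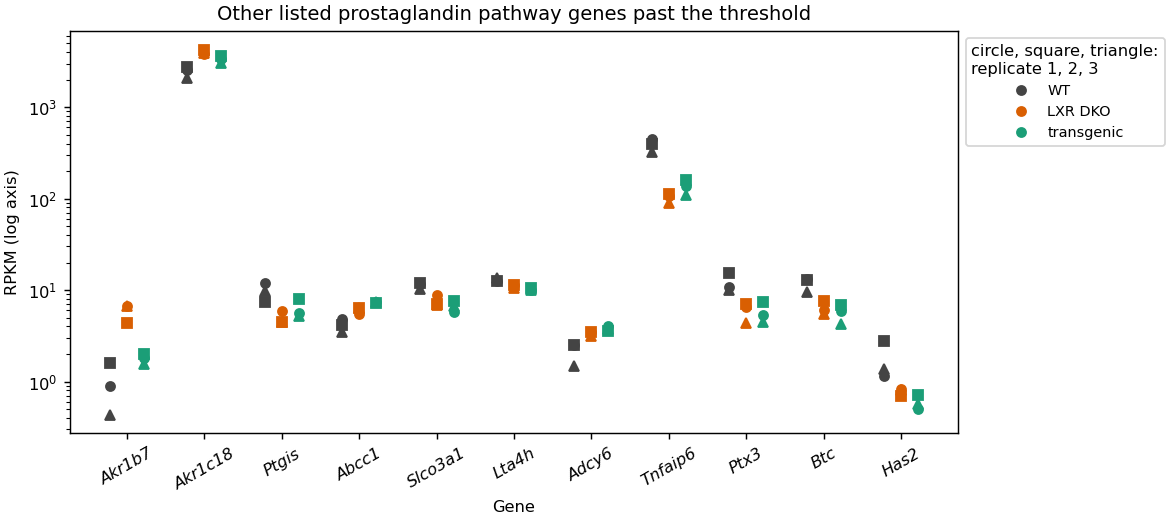
RPKM (vertical log axis) in each library of the 11 other listed genes that passed the threshold in at least 1 comparison (horizontal axis), coloured by genotype, with circles, squares and triangles for replicates 1, 2 and 3. Akr1b7 reads 4.41 to 6.78 RPKM in LXR DKO and at most 2.01 elsewhere, and Tnfaip6 reads 324 to 450 in WT and at most 158 elsewhere.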

How the data were processed

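The authors deposited 1 matrix of RPKM values for 54838 genes and 9 libraries, all used (0 columns of values left out). Per the submitters' processing notes, the tools were DESeq2 1.2.8, HTSeq 0.5.4p5, HISAT2 2.1.0 and cutadapt, on mm10, with no roles stated. Annotation, strand setting and treatment of multiply mapped reads: not given in the sources used here. With GENCODE M21 exon lengths, whole reads (within 0.02) were recovered for 37146 of 37863 genes with values (98.1%), 29822412 to 44049966 per library; 3 reads on 1 kb are 0.0638 to 0.0965 RPKM. No libraries of a group were duplicates (lowest chi-square per degree of freedom 18.0).

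Values were analysed as log2(RPKM + 1) in limma 3.58.1 (R 4.3.3) for genes at 1 RPKM or more in at least 3 libraries, in 1 model of all 9 libraries by genotype, with moderated variances and a trend. The Benjamini-Hochberg adjustment covered the 16422 genes, with a threshold of 0.05. The pseudocount makes fold changes of low genes too small. On data simulated for LXR DKO against WT over 16422 genes, 77% of changes of 1 and 93% of changes of 2 (log2) were recovered. Alternatives were another pseudocount, filters, quantile normalization, voom on recovered reads, no trend, 2 genotypes only, a replicate block and left-out libraries. Symbols came from the matrix and positions from GENCODE M21 (GRCm38). Named were all 10 genes, every listed gene past the threshold, the 3 genes most like each called member, and a few others chosen after their values were seen (Acsl4, Anxa1, Pla2g15, Pla2g12a, Pla2g4c, Alox15, Ereg and Ptgfrn). The genes and lists were chosen with earlier results of these data known.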

Additional observations from a re-analysis of the deposited data

How the results depend on the processing

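Changes are log2 fold changes, and counts are genes past an adjusted p of 0.05 in limma; the cause of a difference between settings was not tested unless named. The Ptgfr calls held under all 18 alternatives, with 1.38 to 1.86 in LXR DKO against WT and 0.80 to 1.22 in transgenic against WT. With no filter on low values, where more genes are tested, the counts of all genes fell from 1739 to 1032 in LXR DKO against WT and from 1949 to 1096 in transgenic against WT. With quantile normalization 31 genes were called in transgenic against LXR DKO, in place of 19, and small changes turned sign: Ptges (0.017) and Pla2g4a (0.038) in LXR DKO against WT, and Pla2g4a (0.0034) and Ptger2 (-0.013) in transgenic against WT. Ptger2 also turned with voom on recovered reads (-0.0064). With only the 2 genotypes compared, which leaves fewer libraries to estimate the spread, LXR DKO against WT gave 902 genes and 1 of the 10, and transgenic against LXR DKO gave 98 genes.

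Without WT 1 and LXR DKO 1 together, LXR DKO against WT gave 1101 genes and 1 of the 10 (Ptgfr), and transgenic against WT gave 1201 genes. Without these 2 libraries Ptgs1 (-0.14), Ptges (0.094) and Pla2g4a (0.076) turned sign in LXR DKO against WT, Ptgs2 (-0.10) and Ptx3 (0.019) in transgenic against LXR DKO, and Ptges (0.0040) in transgenic against WT.

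Leaving out 1 library at a time, the counts of all genes ran from 606 (without LXR DKO 3) to 2082 (without WT 3) in LXR DKO against WT, from 4 (without LXR DKO 3) to 156 (without WT 3) in transgenic against LXR DKO and from 641 (without transgenic 3) to 3442 (without WT 3) in transgenic against WT. Of the 10 genes, 1 to 2 were called in LXR DKO against WT (1 without WT 1, LXR DKO 2 or LXR DKO 3), 0 in transgenic against LXR DKO and 1 to 2 in transgenic against WT (2 without WT 3 or LXR DKO 1). Changes that turned sign, none of them called, ranged in LXR DKO against WT from -0.20 to 0.38 for Ptgs1, -0.13 to 0.068 for Ptges, -0.11 to 0.064 for Pla2g4a, -0.0097 to 0.30 for Ptger4, -0.55 to 0.21 for Hpgd and -0.026 to 0.22 for Abcc4. In transgenic against LXR DKO they ranged from -0.10 to 0.51 for Ptgs2, -0.15 to 0.082 for Ptges, -0.13 to 0.084 for Pla2g4a, -0.23 to 0.087 for Ptx3 and -0.28 to 0.017 for Btc. In transgenic against WT they ranged from -0.52 to 0.062 for Ptgs2, -0.15 to 0.030 for Ptges, -0.15 to 0.066 for Pla2g4a and -0.20 to 0.14 for Ptger2.

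Deviations from the group mean of same-numbered libraries correlated between -0.29 and 0.67, and not every library correlated best with its own number. The highest value was between WT 1 and LXR DKO 1, the libraries with high oocyte markers. Whether same-numbered libraries shared a day or preparation is not stated, and these correlations cannot show it. With the replicate number as a block, 8 genes were called in transgenic against LXR DKO, in place of 19, and the calls of the 10 genes did not change. Has2 could be tested under 13 of the 18 alternatives in comparisons with WT and under 12 in transgenic against LXR DKO, since it fell below the filter in the rest. Depth was lowest for Hpgd, with 161 to 641 reads per library, and highest for Ptgs2, with 10031 to 27353.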
